A study of Mus musculus with 20 samples.

Results

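Genes annotated as miRNA were followed in total RNA from mouse bone marrow-derived macrophages (BMDM). The deposited gene count table had 14456 rows, of which 14421 had an entry in the GENCODE M21 annotation (build GRCm38). Of these, 76 carried the gene type miRNA there, and they are the members described here. GENCODE M21 holds 2207 such genes in all. One member, Gm23935, took so many reads that it is described apart from the other 75. All groups were wild-type cells, grown from marrow of male C57BL/6J mice that were 8 to 12 weeks old and differentiated with M-CSF for 6 days. The glucose experiment held 4 libraries of BMDM exposed to glucose at 25 mM (high glucose) and 4 of BMDM whose medium had 5.5 mM glucose and, beside it, 19.5 mM mannitol (normal glucose), both over 24 h. In the exosome experiment, naive BMDM received PBS, exosomes from BMDM in normal glucose (BMDM-NG-exo) or exosomes from BMDM in high glucose (BMDM-HG-exo) for 24 h (n = 4 libraries each). The exosomes were given at 2000000000 particles per ml, and each of the 4 dates in the labels holds 1 library of each exosome group. The study states that the samples of the exosome experiment came from separate exosome preparations. Neither these dates nor other labels say that replicates came from separate animals, so the p-values measure the spread between these libraries.

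The libraries held between 34016445 and 56310712 reads on the listed rows (median 43311931). All 9 macrophage markers looked for, such as Csf1r, the M-CSF receptor, were among the rows, as were 5 of 8 neutrophil, 3 of 4 stromal and 1 of 4 B cell markers. Of 7 erythroid, 5 T and NK cell, 4 dendritic cell and 4 mast cell markers, 0 were among the rows analysed. Values are normalized counts, which are reads divided by 1 size factor per library.

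Most miRNAs are cut from long primary transcripts, and many lie in the introns of other genes. The nuclear enzyme Drosha with its partner Dgcr8 frees a hairpin, Xpo5 exports it, Dicer1 cuts it to a short duplex, and an Argonaute protein carries 1 strand of it to target mRNAs. Pairing of the seed, a short stretch near the 5′ end of the mature strand, selects most targets. The libraries were made from fragmented total RNA and read over 100 bases at each end. A count in a miRNA row thus came from a longer RNA that covers all or part of the row (such as a primary transcript, a host intron or another RNA of the same sequence). It is not the level of the mature miRNA.

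The rows with the most reads shared a sequence. Gm23935, Gm24270 and Gm24245 have the same 57 bases in GENCODE M21, and Gm24187 and Gm25911 are near copies of 57 and 56 bases. They are shown as DNA, 5′ to 3′, with capitals for bases that differ from Gm23935.
Gm23935: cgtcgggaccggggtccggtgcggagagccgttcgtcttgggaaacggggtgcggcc
Gm24187: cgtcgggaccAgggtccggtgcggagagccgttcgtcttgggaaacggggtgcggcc
Gm25911: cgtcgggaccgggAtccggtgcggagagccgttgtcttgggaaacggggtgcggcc
Counted from 1 at the 5′ end of Gm23935, Gm24187 has the substitution G11A. Gm25911 has G14A and lacks 1 base. Among 141767 GENCODE M21 transcripts, blastn found 1 match to Gm23935 beyond these 5 rows, the miRNA gene Gm23388, which is not among the rows analysed. For another member, Mir6236, it found beside the row itself a match of 32 bases to Alx4, at 93.75% identity. No ribosomal DNA repeat was among the reference sequences used here, so a match of these rows or of Mir6236 to it was not tested. A read that lies inside these bases cannot be told apart between the 3 identical rows, and how reads with several mapping places were counted is not given in the sources used here. The split of reads between these 5 rows is therefore uncertain.

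RefSeq lists a mature strand for 50 of the 76 members. The strands of the highest named rows that it holds are shown as RNA, with the seed (bases 2 to 8) in capitals.
mmu-miR-6236: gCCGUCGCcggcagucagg
mmu-miR-24-3p: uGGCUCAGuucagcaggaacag
mmu-miR-27b-3p: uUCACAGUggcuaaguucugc
mmu-miR-5125: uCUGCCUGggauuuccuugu
Among the 77 mature strands of the members, 3 seeds occurred in more than 1 member. They joined Mir221 with Mir222 and, on both arms, Mirlet7a-1 with Mir98. Not every strand was in the list, which held the 5p strand alone for Mir23b, so seeds on missing strands were not compared.
mmu-miR-221-3p: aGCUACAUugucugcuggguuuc
mmu-miR-222-3p: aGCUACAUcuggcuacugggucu
mmu-let-7a-5p: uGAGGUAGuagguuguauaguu
mmu-miR-98-5p: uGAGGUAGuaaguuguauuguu
The text of the study names miR-486 in exosomes and monocytes, and miR-126a, miR-99b, miR-16 and miR-423 in macrophages. The rows analysed held 0 genes of these 5 names. The list of strands used here held none of miR-486, so its seeds were not compared with those of the members. Among the strands it held of the other names, Mir99a carries the seed of miR-99b, and Mir6353 that of miR-16.
mmu-miR-99b-5p: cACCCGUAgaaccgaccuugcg
mmu-miR-99a-5p: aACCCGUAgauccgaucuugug
mmu-miR-16-5p: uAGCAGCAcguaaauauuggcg
mmu-miR-6353: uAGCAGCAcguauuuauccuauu

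The members fell into 6 rows with many reads and 70 with few. Averaged over the 20 libraries, Gm23935 had 4962470 normalized counts, Gm24270 61136, Gm25911 12048, Gm24187 10804, Mir6236 3347 and Gm24245 881. The next were Mir24-1 with 176, Mir5125 with 172 and Mir27b with 147. The median of the 70 lower rows was 23.0 counts, and 44 of them had a mean under 30. A library gave these 70 rows between 1708 and 2749 reads in all, which was between 0.00461% and 0.00656% of its reads. In 8 of the rows 1 of the 20 libraries had 0 reads.

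**Figure D1:**
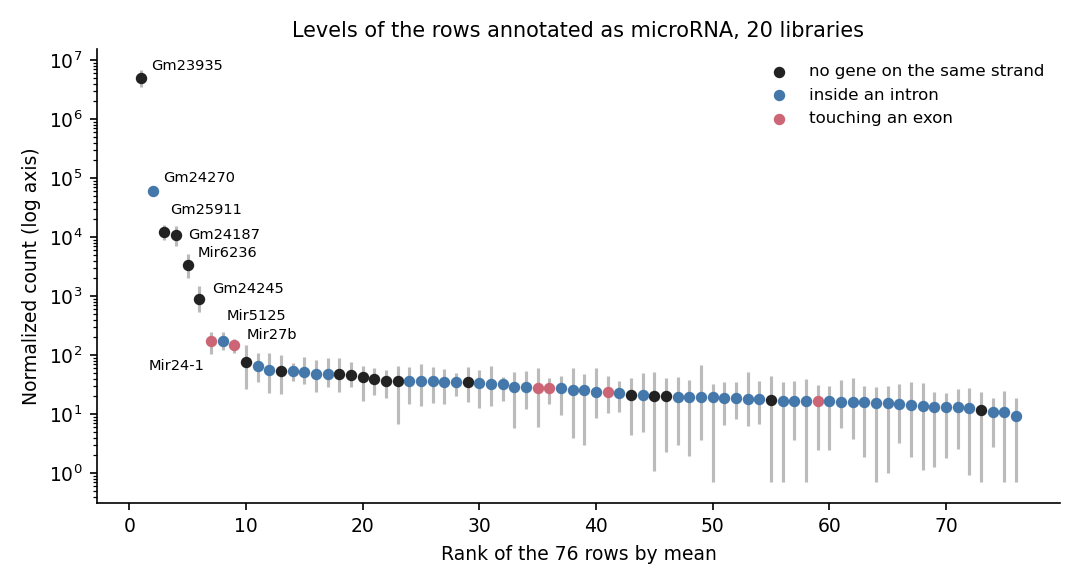
Mean normalized count of each of the 76 rows over 20 libraries (points, log axis), ranked by level, with grey lines from the lowest to the highest library (libraries at 0 are drawn at the foot of the axis). The 6 highest rows reach down to a mean of 881 counts and the other 70 start at 176, and colours give the place of the row in genes on the same strand.

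The members sit on 20 chromosomes and are 56 to 188 bases long (median 95). On the same strand, 51 lie inside an intron of another listed gene and 6 touch an exon, and the remaining 19 overlap none. Of these 19, 8 lie opposite a gene on the other strand, among them Gm44394, Gm44313, Gm44364 and Gm44492, which lie opposite genes of histone H2A. Gm23935 itself (chr16:11144125-11144181, + strand) lies opposite Zc3h7a, a zinc finger protein gene. Gm24270 (chr9:56223715-56223771, - strand) is in an intron of Peak1. Mir6236 (chr9:110281287-110281409, + strand), Gm25911 (chr1:167340369-167340424, - strand), Gm24187 (chr13:9834469-9834525, - strand) and Gm24245 (chr4:139338304-139338360, + strand) overlap no gene on either strand. One member, Snord43 in an intron of Rpl3, bears the name of a small nucleolar RNA but the gene type miRNA.

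The spread between libraries set what could be seen in the lower rows. Within groups, the 70 rows had a median coefficient of variation of 40.7% (range 16.9% to 70.2%), where counting error alone at their read numbers gives a median of 20.8%. The 6 high rows varied by 7.71% to 22.04%, with a counting error of at most 3.32%. The standard error of a log2 fold change had a median of 0.42 in the lower rows and 0.10 over all rows in the glucose comparison, and of 0.49 and 0.10 in the comparisons of the 3 exosome groups.

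Gm23935 alone took 8.78% to 15.2% of each library, and 97.8% to 98.5% of all reads on the 76 members. No 95% Wilson interval spanned over 0.0214 percentage points, a width for counting error alone. In normal glucose the share was 12.7%, 8.78%, 11.6% and 11.0% in libraries 1, 3, 5 and 6, and in high glucose it was 11.9%, 11.1%, 10.8% and 11.1% in libraries 1, 2, 4 and 6. All 4 high glucose values lay within the range of normal glucose. In libraries 1 to 4, PBS gave 11.5%, 12.9%, 10.2% and 14.2%, BMDM-NG-exo 15.2%, 10.6%, 11.0% and 13.2%, and BMDM-HG-exo 13.1%, 10.7%, 11.0% and 11.4%. The 3 exosome groups overlapped, and the highest and the lowest share of the series stood in BMDM-NG-exo and normal glucose.

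**Figure D2:**
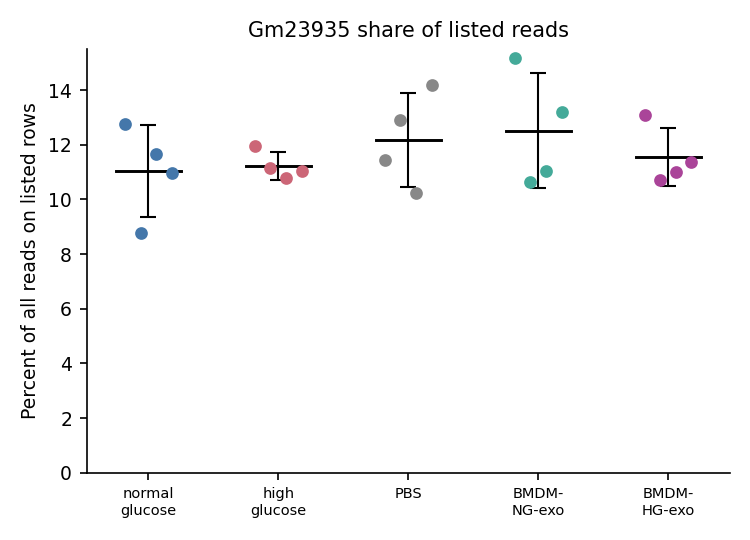
Share of each library's listed reads that fell on Gm23935, in percent, for the 5 groups (points, libraries; bars, mean ± SD, n = 4). The groups overlap, with means between 11.0% and 12.5%.

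The mean share was 11.2% ± 0.501 (SD, n = 4) in high glucose and 11.0% ± 1.67 in normal glucose, a difference of 0.187 percentage points (exact two-sided permutation test, p = 0.8286, adjusted p over the 5 comparisons 0.8286). BMDM-HG-exo, at 11.5% ± 1.06, was 0.979 points below BMDM-NG-exo, at 12.5% ± 2.10 (exact p = 0.514), and 0.649 points below PBS, at 12.2% ± 1.72 (exact p = 0.600). BMDM-NG-exo was 0.33 points above PBS (exact p = 0.800), and BMDM-HG-exo was 0.814 points below the 8 controls combined (exact p = 0.457). The adjusted p was 0.8286 for each of them, and the smallest p that 4 against 4 libraries can give is 0.0286. Each difference was within the spread between libraries. Leaving out 1 library turned the sign of 3 differences: in glucose without library 3 of normal glucose (-0.56 points) or library 1 of high glucose (-0.05), in BMDM-NG-exo against PBS without PBS 3 (-0.32) or BMDM-NG-exo 1 (-0.55), and in BMDM-HG-exo against PBS without PBS 4 (0.01).

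The near copies did not follow Gm23935 alike. Gm24187 stayed between 2.01 and 2.34 counts per 1000 counts of Gm23935 in all 20 libraries, a coefficient of variation of 4.33%. Its own level differed by up to 2.18-fold between libraries and that of Gm23935 by up to 1.95-fold. For Gm24270 the ratio ran from 9.90 to 16.9 per 1000, for Gm25911 from 1.78 to 3.15 and for Gm24245 from 0.132 to 0.24. Mir6236, which has no sequence match to them, ranged from 0.467 to 0.872 per 1000. Gm24187, which differs by 1 base, thus had the narrowest range of ratios, and the fully identical Gm24270 and Gm24245 had wider ones.

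High glucose was compared with normal glucose to see which members differ after 24 h of glucose. Mir6236 and Gm24187 were higher in high glucose, and of 74 members tested these 2 were called (limma, Benjamini-Hochberg adjusted p under 0.05, 14425 rows tested). That is 2.70% of the members, where 13.3% of all rows were called. At an unadjusted p under 0.05 there were 7 of 74 members, against 25.4% of all rows. The median log2 fold change was -0.04 over the 74 members.

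Mir6236 had 3750, 2009, 3502 and 3007 normalized counts in normal glucose (libraries 1, 3, 5, 6) and 3738, 4115, 3548 and 3862 in high glucose (libraries 1, 2, 4, 6). Library 3 of normal glucose was the lowest, and library 1 of normal glucose lay inside the range of high glucose. The means were 3067 ± 770 (SD, n = 4) and 3815 ± 238, a log2 fold change of 0.35 ± 0.10 (SE, limma adjusted p = 0.0106). Without library 3 of normal glucose it was 0.16, with a limma adjusted p of 0.0524. The call was also lost with quantile normalization (adjusted p = 0.0583), without the trend (0.324), with DESeq2 (0.268) and with the library number as a block (0.125), and over the 18 alternatives adjusted p ran from 0.000143 to 0.324.

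Gm24187 had 10687, 7141, 9787 and 9046 counts in normal glucose. The high glucose libraries had 10349, 10516, 10218 and 10030. Again the lowest value was that of library 3 of normal glucose, and library 1 of that group was the highest of the 8. The log2 fold change was 0.18 ± 0.06 (limma adjusted p = 0.0494), and over the 18 alternatives adjusted p ran from 0.000643 to 0.755. Without library 3 of normal glucose the log2 fold change was 0.07 (adjusted p = 0.356), and the call was also lost without library 6 of normal glucose (adjusted p = 0.0967) or any 1 of the 4 high glucose libraries (adjusted p from 0.0836 to 0.12). It was lost too with a pseudocount of 0.5, TMM factors, quantile normalization, no trend, edgeR, DESeq2 or the library number as a block. Without library 3 of normal glucose, Gm24245 was called lower in high glucose (-0.32, adjusted p = 0.0185), from -0.10 with all libraries (adjusted p = 0.683).

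Of 12 other abundant rows looked at (mostly noncoding RNAs), 4 were called higher in high glucose (Lars2, CT010467.1, Rn7sk and Rn7s1), 0 lower, and 8 were not called. Over all rows tested, 13.3% were called. Library 3 of normal glucose had the lowest value of the series in 4 of the 12 (CT010467.1, Rn7sk, Rn7s1 and Rmrp) and the highest in 2 (Rpph1 and mt-Rnr1). CT010467.1, a row of the type rRNA, had its lowest value of the series in library 3 of normal glucose (1579 counts, beside 2601, 3270 and 3359 in that group) and a log2 fold change of 0.38 ± 0.12 in high glucose (limma adjusted p = 0.0252). Rn7s1, a signal recognition particle RNA, had one of 0.46 ± 0.14 (adjusted p = 0.0227), and it too was lowest there (235 counts, beside 401, 434 and 490). The 9 macrophage markers summed to between 640453 and 715742 counts in normal glucose and to between 819797 and 890217 in high glucose, without overlap. The other sums overlapped between normal and high glucose. They were 638 to 834 and 813 to 946 for the 5 neutrophil markers listed, and 117 to 199 and 163 to 243 for the 3 stromal ones. For the 1 B cell marker they were 32.1 to 57.6 and 17.4 to 50.5. The part of these values in the calls was not tested.

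**Figure D3:**
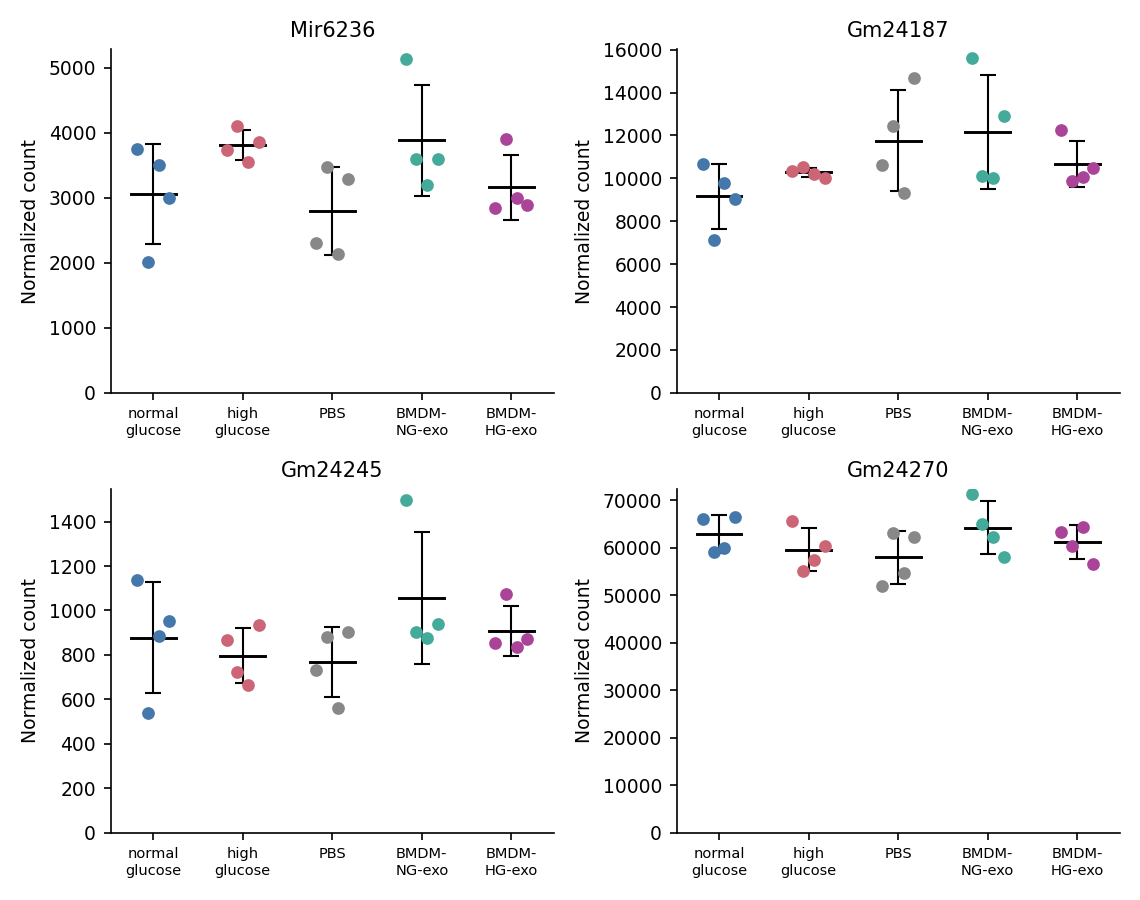
Normalized counts of Mir6236, Gm24187, Gm24245 and Gm24270 in the 5 groups (points, libraries; bars, mean ± SD, n = 4; axes start at 0). Library 3 of normal glucose is low for Mir6236 (2009), Gm24187 (7141) and Gm24245 (537), and 1 BMDM-NG-exo library is the highest of the series for all 4.

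Below the 6 high rows, no member passed the test in glucose. The 3 largest differences were those of Gm24273 in an intron of Srgap2 (log2 fold change 1.80 ± 0.69, adjusted p = 0.0783), Mir5123 in an intron of B4galt1 (-1.07, adjusted p = 0.209) and Mir350 in an intron of Cep170 (-1.03, adjusted p = 0.102). Gm24273 had 22.3, 5.33, 0 and 24.3 counts in normal glucose. High glucose gave 10.3, 31.8, 39.4 and 35.9. Its groups overlapped, and the 0 of library 5 allows up to 3 reads. It was called without library 1 (adjusted p = 0.0206) or 6 (0.0304) of normal glucose or library 1 of high glucose (0.0379), and Mir350 without library 1 of normal glucose (0.0336), where 17 alternatives ran from 0.0206 to 0.934 for Gm24273 and from 0.0336 to 0.508 for Mir350. The host genes of these 3 had log2 fold changes of 0.13, -0.02 and 0.03.

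Mir146, Mir221 and Mir5104 are named because other tests called them, and so were chosen after their values were seen. Mir146 is the gene of miR-146a, which is known to restrain inflammatory signalling in macrophages. It had 84.5, 74.7, 66.6 and 80.4 counts in normal glucose. High glucose gave 149.5, 118.6, 108.5 and 87.1. The 4 values in high glucose lay above the 4 in normal glucose, with a log2 fold change of 0.57 ± 0.22 (limma adjusted p = 0.0784). Mir221 had a mean of 44.7 ± 10.4 (SD, n = 4) in normal glucose and 76.0 ± 23.4 in high glucose (0.73 ± 0.28, limma adjusted p = 0.0874), with overlap between the groups. Mir5104, in an intron of the RNase gene Zc3h12d, had 67.1 ± 14.9 and 39.4 ± 7.50 (-0.75 ± 0.28, limma adjusted p = 0.0783), without overlap. DESeq2 called these 3 (adjusted p of 0.0376, 0.0469 and 0.0397), and edgeR called Mir6236 among the members. Over 18 alternatives, Mir146 was called in 3 (adjusted p from 0.0332 to 0.53), Mir221 in 3 (0.0454 to 0.394) and Mir5104 in 1 (0.0397 to 0.26). The calls of Mir146 and Mir221 include quantile normalization and the fit without library 6 of high glucose (0.0498 and 0.0454). Mir98 was called without the trend alone (0.51, limma adjusted p = 0.029), and Gm24270 was called lower with quantile normalization (-0.16, limma adjusted p = 0.00841) and without library 1 of high glucose (-0.13, limma adjusted p = 0.0382). In all, 2 members (Mir146 and Mir98) were higher and 2 (Mir5104 and Gm23134) lower without overlap of the groups, where 9.18% and 7.11% of all rows tested were.

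**Figure D4:**
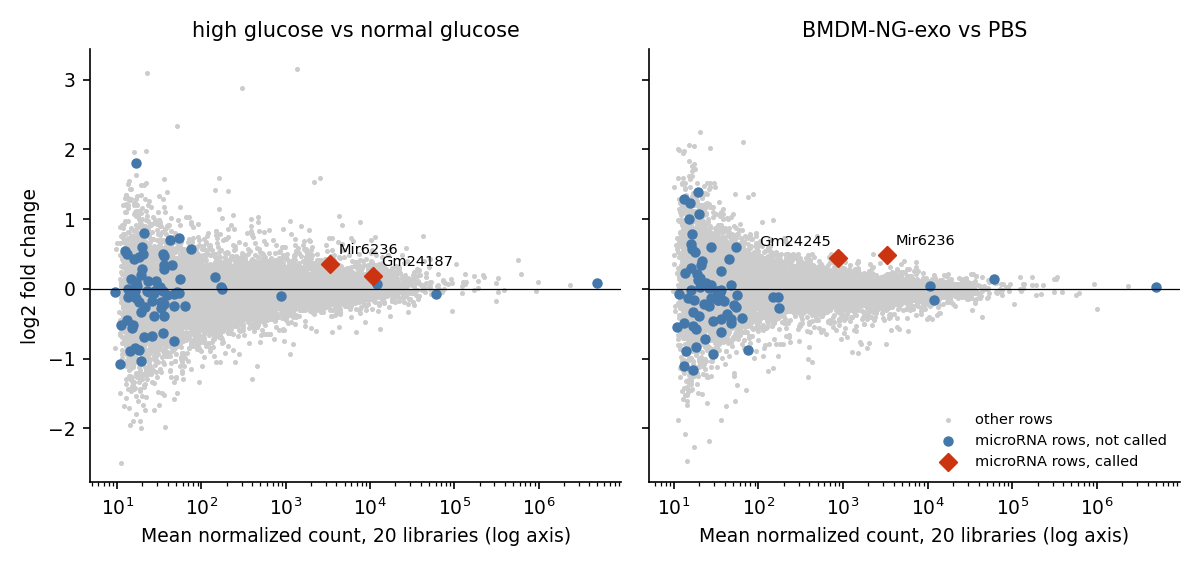
Log2 fold change against mean normalized count (log axis) for all rows tested in high glucose against normal glucose (left) and BMDM-NG-exo against PBS (right), with the miRNA rows in blue and those called as red diamonds. Most miRNA rows lie at the low end of the counts, where fold changes spread most, and the called ones (0.35 and 0.18, then 0.48 and 0.44) are among the 6 high rows.

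BMDM-NG-exo and PBS were compared to see what exosomes of cells in normal glucose did to naive BMDM. Mir6236 and Gm24245 were higher with BMDM-NG-exo, and these 2 of 73 members were called (limma, adjusted p under 0.05 with a log2 fold change of 0.15 or more in size, 14413 rows tested). Over all rows 3.0% were called. At an unadjusted p under 0.05 there were 6 of 73 members, against 13.5% of all rows.

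Mir6236 had 2304, 3474, 2133 and 3291 counts in PBS and 5132, 3604, 3205 and 3602 in BMDM-NG-exo, in the order of libraries 1 to 4. Libraries of the same number share a date, and the numbers do not follow the order of the dates. It was higher with BMDM-NG-exo on all 4 dates, by 0.05 to 1.16 on the log2 scale, although the groups overlapped. The log2 fold change was 0.48 ± 0.11 (SE, limma adjusted p = 0.00924). The adjusted p was 0.0724 without PBS 1, 0.0603 without PBS 3 and 0.0739 without BMDM-NG-exo 1, so the call was lost, and over 22 alternatives it ran from 0.00137 to 0.364. BMDM-HG-exo gave 2849, 3910, 3005 and 2894 counts. Against the same PBS libraries, the log2 fold change of BMDM-HG-exo was 0.20 ± 0.11 (adjusted p = 0.398), and against BMDM-NG-exo it was -0.29 ± 0.11 (adjusted p = 0.635).

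Gm24245 had 731, 880, 563 and 904 counts in PBS and 1498, 905, 876 and 938 in BMDM-NG-exo. Library 1 of BMDM-NG-exo stood far above the others, and all 4 dates were higher than PBS, by 0.04 to 1.03 on the log2 scale. The log2 fold change was 0.44 ± 0.13 (limma adjusted p = 0.0429), with a range of adjusted p from 0.0139 to 0.416 over 22 alternatives. Both calls of this comparison were lost without the trend and with DESeq2. The log2 fold change of Gm24245 was 0.26 without BMDM-NG-exo 1 (adjusted p = 0.2905), 0.42 without PBS 1 (0.1145) and 0.30 without PBS 3 (0.217). Its identical copies Gm23935 and Gm24270 had log2 fold changes of 0.03 and 0.15 (adjusted p = 0.932 and 0.11), and the near copy Gm25911 one of -0.16 (adjusted p = 0.247). Without BMDM-NG-exo 4, Gm24270 was called higher (0.20, adjusted p = 0.0197) and Gm25911 lower (-0.24, adjusted p = 0.0199), and Gm24270 was also called without PBS 2 (0.19, adjusted p = 0.0374).

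Of the same 12 abundant rows, 2 were called and 10 were not, where 3.0% of all rows were called. Lars2, a mitochondrial leucyl-tRNA synthetase gene, was higher with BMDM-NG-exo (0.28 ± 0.07, limma adjusted p = 0.0211). Gm26917, a long noncoding RNA, was lower (-0.29 ± 0.05, adjusted p = 0.000654), and CT010467.1 stood at 0.05 on the log2 scale (adjusted p = 0.911). Against the same PBS libraries, Gm26917 was also called lower in BMDM-HG-exo, as the only 1 of the 12 rows, where 4.84% of all rows were called. The 9 macrophage markers summed to between 803770 and 850011 counts in PBS and to between 727682 and 784274 in BMDM-NG-exo, without overlap. In BMDM-HG-exo they summed to between 745098 and 769949, which also lay below PBS without overlap. The 5 neutrophil markers summed to between 1019 and 1348 in PBS and to between 1004 and 1291 in BMDM-NG-exo, with overlap. Library 1 of BMDM-NG-exo had the most reads (56310712) and the highest Gm23935 share of the series, and it was the highest library in 6 of the 12 abundant rows. The part of these values in the calls was not tested.

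The largest differences in this comparison belonged to low rows and were not called. They were Gm22118 in an intron of Zswim6 (log2 fold change 1.39, adjusted p = 0.343), Mir1942 in an intron of Plec (1.29, adjusted p = 0.411) and Mir3075 in an intron of Zmiz1 (1.23, adjusted p = 0.459). Mir146 had 51.9, 105, 101 and 79.4 counts in PBS and 48.6, 43.3, 27.0 and 65.2 in BMDM-NG-exo. It was lower on each of the 4 dates, by 0.09 to 1.87 on the log2 scale, with overlap between the groups. Its log2 fold change of -0.88 ± 0.31 did not pass (limma adjusted p = 0.134), nor under any of 22 alternatives (0.0608 to 0.423). Mir221 had 21.5, 44.3, 53.7 and 46.6 counts in PBS and 60.6, 57.8, 61.7 and 59.9 in BMDM-NG-exo (0.59 ± 0.31, limma adjusted p = 0.42). It alone of the 76 members was higher without overlap, and 0 were lower, where 3.64% and 4.63% of all rows tested were.

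BMDM-HG-exo against PBS gave 0 called members of 73 with limma, and 0 with edgeR and with DESeq2, where limma called 4.84% of all rows. At an unadjusted p under 0.05 there were 9 members, against 16.9% of all rows, and edgeR gave 4 and DESeq2 5. This comparison shares the PBS libraries with the one before. Gm22118 had 0, 12.2, 17.1 and 4.96 counts in PBS and 25.2, 22.1, 25.5 and 25.7 in BMDM-HG-exo, without overlap. Its log2 fold change was 2.06 ± 0.66 (limma adjusted p = 0.06), and with the date as a block the adjusted p was 0.0377, a call. Over 21 alternatives adjusted p ran from 0.0148 to 0.282. It was 0.0359 without PBS 2 and 0.0148 without PBS 3, and without PBS 1, the library at 0, the log2 fold change was 1.18 (adjusted p = 0.282). The host Zswim6 had a log2 fold change of -0.14. In BMDM-NG-exo the row had 9.57, 28.0, 13.5 and 13.9 counts, which overlapped both other groups.

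Gm24195, in an intron of Arl10, had 32.9, 26.6, 31.75 and 34.7 counts in PBS, 32.7, 19.0, 36.3 and 22.45 in BMDM-NG-exo and 20.1, 11.0, 12.8 and 11.9 in BMDM-HG-exo. On all 4 dates BMDM-HG-exo was the lowest. Its log2 fold change was -1.15 ± 0.42 against PBS (limma adjusted p = 0.114; 0.0325, a call without the trend, to 0.223 over 21 alternatives) and -0.93 ± 0.42 against BMDM-NG-exo (adjusted p = 0.712), where the groups overlapped. Mir29a stood at -1.75 on the log2 scale against PBS (adjusted p = 0.182) and Mir3075 at 1.55 (adjusted p = 0.229). In all, 2 members (Gm22118 and Gm44349) were higher and 2 (Gm24195 and Gm27616) lower than PBS without overlap, where 4.41% and 5.59% of all rows tested were.

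BMDM-HG-exo against BMDM-NG-exo, the comparison of exosomes from cells at the 2 glucose levels, called 0 of 73 members with limma, edgeR and DESeq2. Limma called 0.0139% of all rows. At an unadjusted p under 0.05 it gave 5 members, against 6.54% of all rows, edgeR 3 and DESeq2 2. The largest differences were those of Mir29a (-1.68, adjusted p = 0.685), Mir98 (1.13, adjusted p = 0.822) and Gm24195. Mir29a had 0, 13.8, 11.8 and 1.83 counts in BMDM-HG-exo and 12.0, 18.1, 22.8 and 8.55 in BMDM-NG-exo, with overlap. Mir221 was lower than in BMDM-NG-exo without overlap (35.2 to 56.9 counts), alone of the 76 members, and 0 were higher, where 2.01% and 1.86% of all rows tested were. BMDM-HG-exo against PBS and BMDM-NG-exo combined (4 against 8 libraries) called 0 of 73 members with all 3 tools and 0.201% of all rows with limma. At an unadjusted p under 0.05 there were 4 members with limma, 4 with edgeR and 5 with DESeq2, against 10.5% of all rows with limma. No member was free of overlap there (0 higher and 0 lower, where 0.576% and 0.597% of all rows tested were). The 3 largest differences were those of Mir29a (-1.71, adjusted p = 0.278), Gm22118 (1.36, adjusted p = 0.435) and Gm24195 (-1.04, adjusted p = 0.214).

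Gm23935 was not called in any of the 5 comparisons. Its log2 fold changes on normalized counts were 0.09 ± 0.07 in high glucose (limma adjusted p = 0.455), -0.12 against the combined controls (0.701), -0.14 against BMDM-NG-exo (0.884), -0.10 for BMDM-HG-exo against PBS (0.616) and 0.03 for BMDM-NG-exo against PBS (0.932). The sign in high glucose and in BMDM-NG-exo against PBS turned when single libraries were left out.

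Members that lie within 10 kb of each other formed 2 groups. Mir23b, Mir27b and Mir24-1 stand in this order on chromosome 13 (63300484 to 63301275, + strand) within 2010111I01Rik, a gene also known as Aopep, with Mir23b in an intron and the others touching an exon. Per 100 bases, their levels were 72.8, 201 and 260 normalized counts, against 40.5 per 100 exon bases of the host. Mir24-1 ranged from 105 to 250 counts over the 20 libraries, Mir27b from 107 to 189 and Mir23b from 35.9 to 74.3. In high glucose their log2 fold changes were 0.00, 0.18 and -0.06 in the order Mir24-1, Mir27b and Mir23b, and in BMDM-HG-exo against PBS they were -0.38, -0.04 and -0.13. None of these was called. Mir221 and Mir222 lie next to each other on the - strand of chromosome X (19146294 to 19146971), with 57.0 and 25.7 counts per 100 bases, and share a seed. Mir222 had a log2 fold change of 0.51 ± 0.54 in high glucose (limma adjusted p = 0.609), beside the 0.73 of Mir221.

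Rows of other miRNAs that are well known in blood cells, or that share a seed with one the study names, were chosen after their values were seen, and limma called them in no comparison. Mir142, from a gene used mostly by blood cells, had group means between 33.2 and 40.9 counts, with 35.4 in PBS, 35.4 in BMDM-NG-exo and 35.3 in BMDM-HG-exo. Mir342, in an intron of Evl, had means between 36.65 and 59.9. For Mirlet7a-1, a let-7 gene in an exon of 6720427I07Rik, they ran from 18.0 to 32.3, and 1 PBS library (59.5 counts) was far above another (6.11). Mir99a, which shares its seed with miR-99b, had means between 13.7 and 19.0, and Mir6353, which shares its seed with miR-16, between 40.2 and 78.3.

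The 57 members with a listed host lie in 55 genes, and reads in the 51 intronic ones were set beside those of their hosts. Per base, the median intronic member had 34.7% of the density of the exons of its host, and 8 of 51 had a higher density than their host. A read that only touches a short row may have been counted for it, which would overstate the density of these rows. This was not tested. Mir1942 had the lowest value, 5.20% of that of the cytolinker gene Plec, and Mir340 had 6.18% of that of Rnf130. Mir5125 in Srrm2, a splicing factor gene, reached 78.1%, and Mir142 in its own host transcript Mir142hg 95.6%. Far above lay Gm24270, with 107256 counts per 100 bases against 95.1 for Peak1, and Gm22953, with 27.0 against 0.438 for Serinc4. Gm22953 also lies opposite Serf2. Among the 6 rows that touch an exon, the values ran from 24.5% for Mir8094 in Ddx39b to 641% for Mir24-1. Whether a read shared by a member and its host counts for either is not given in the sources used here.

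**Figure D5:**
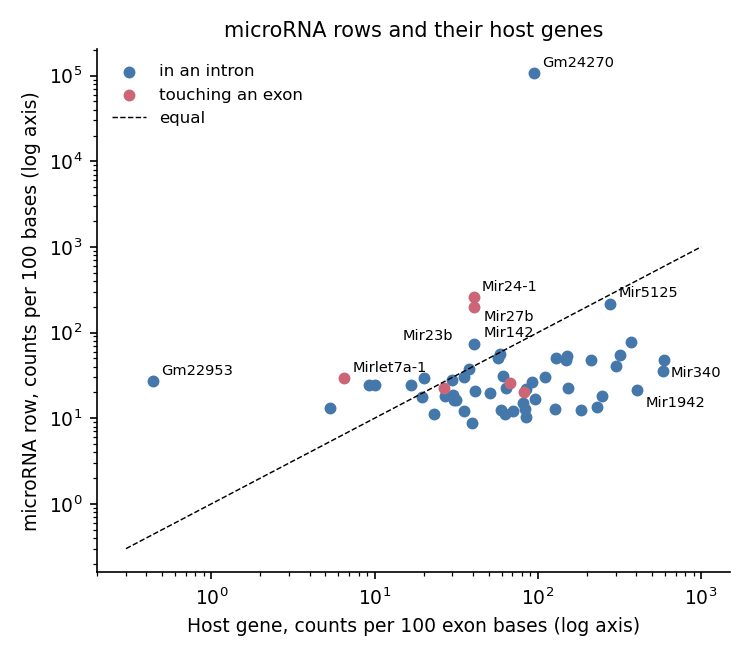
Normalized counts per 100 bases of the 57 members with a listed host gene on the same strand, against those per 100 exon bases of the host (both log axes, means of 20 libraries; dashed line, equal density). Most intronic rows lie under the line, and Gm24270 and Gm22953 lie far above it.

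In high glucose, 10 hosts rose and 6 fell among 56 pairs with both rows tested, and 0 of the 56 members passed (limma; their median standard error was larger, as above). The 16 hosts called are 28.6% of the pairs, where 13.3% of all rows were called. Hosts were not matched to other rows by level, and among rows with a mean of at least 50 limma called 2015 of 11804. Among the hosts that rose, Anxa2 (annexin A2) had a log2 fold change of 0.20 and its intronic Mir3109 one of 0.28, and Il10ra, the IL-10 receptor, had 0.15 and its intronic Mir7086 -0.04. Among those that fell, Zc3h12d had -0.26 and Mir5104 -0.75, and Slc16a6 had -0.38 and Gm25540 -0.05. The median absolute log2 fold change was 0.23 in the members and 0.08 in the hosts, and across the 56 pairs Pearson's r was 0.27, a description over pairs of unequal precision from the same libraries. In the exosome comparisons r lay between -0.05 and 0.17 over 54 pairs. Of the hosts in these 54 pairs, limma called 1 in BMDM-NG-exo against PBS (1.85%), where 3.0% of all rows were called. In BMDM-HG-exo against PBS it called 4 (7.41%), where 4.84% of all rows were. Against the shared PBS libraries, Il10ra fell with both kinds of exosomes (-0.20 for BMDM-NG-exo, -0.19 for BMDM-HG-exo), where Mir7086 had -0.04 and -0.15. The others called in BMDM-HG-exo were Cdk17 (0.21), Rnf215 (-0.32) and Mir99ahg (0.25). Their intronic Mir1931, Mir3060 and Mir99a had 1.02, 0.14 and -0.05 and were not called.

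Of 29 genes of the miRNA pathway looked for, 27 were among the rows. The 2 others, Lin28a and Lin28b, were not among the rows analysed. In high glucose 4 rose and 2 fell, with log2 fold changes from -0.24 to 0.29 over the 27. These 6 are 22.2% of the list, where 13.3% of all rows were called. Ran, the GTPase that powers export of hairpins by Xpo5, rose by 0.29 ± 0.04 (SE, limma adjusted p = 1.26e-05), from 3128 ± 68.7 (SD, n = 4) to 3818 ± 140 counts. Adar, which edits double-stranded RNA, rose by 0.26 ± 0.05 (adjusted p = 0.000637). Ncbp1 and Ncbp2, which bind the cap of nuclear transcripts, rose by 0.22 and 0.21. Ago4, an Argonaute, and Dis3l2, an exonuclease that destroys tailed miRNA precursors, both fell, with log2 fold changes of -0.22 ± 0.05 and -0.24 ± 0.07 (limma adjusted p of 0.00366 and 0.0095).

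In the exosome experiment Adar was lower in both exosome groups than in the shared PBS libraries, with -0.29 ± 0.05 for BMDM-NG-exo (limma adjusted p = 0.000307) and -0.26 ± 0.05 for BMDM-HG-exo (adjusted p = 0.000733). Ago2, the Argonaute that can cut its targets, rose by 0.19 ± 0.04 in BMDM-HG-exo against PBS (adjusted p = 0.000381), from 7180 ± 141 (SD, n = 4) to 8218 ± 134 counts. These were 1 of the 27 in BMDM-NG-exo against PBS, where 3.0% of all rows were called, and 2 of the 27 in BMDM-HG-exo against PBS, where 4.84% were. In BMDM-HG-exo against BMDM-NG-exo or against the combined controls, limma called 0 of the 27 (0.0139% and 0.201% of all rows). Drosha, Dgcr8, Xpo5 and Dicer1 were called in none of the 5 comparisons.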

How the data were processed

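The authors trimmed the reads of stranded total RNA libraries depleted of ribosomal cDNA, mapped them to GRCm38 with STAR 2.5.3a, counted them per gene with featureCounts 2.0.1 (read 2 as sense) and divided the counts by DESeq2 1.20.0 median-ratio size factors (between 0.79 and 1.25). The deposited signal is this normalized count. The annotation used for counting and the treatment of reads with several places are not given in the sources used here. No column lacked a sample. The lowest median of any row across libraries was 11 reads, and genes under it were not analysed here. Whole reads were recovered from the smallest step of each column (100% of values whole within 0.001 read), and edgeR and DESeq2 were run on them as alternatives. In 2 columns the step is within 1% of 1. PCR reads are not independent molecules, so the intervals and the limit of 3 reads for a count of 0 cover counting error only. Pairs within groups differed beyond sampling noise (chi-square per degree of freedom between 5.19 and 41.9 over 30 pairs).

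GENCODE M21 gave names, gene types and places, and RefSeq (GRCm38.p6) the mature strands. Members and lists were chosen with earlier results of these data known. Log2 of the normalized count plus 1 was tested with limma 3.58.1 in R 4.3.3 (lmFit, eBayes with trend, two-sided) over rows with a mean of at least 10, with Benjamini-Hochberg adjustment over all of them. The 8 glucose libraries formed 1 fit. The 12 exosome libraries were fitted once with the 2 control groups combined and once as 3 groups. Calls needed an adjusted p under 0.05 and, for exosomes, a log2 fold change of 0.15 or more in size. Fold changes are on the scale with 1 added, which understates changes of low rows. Shares of Gm23935 were compared with exact permutation tests. The fits were tested on simulated data that gave every row the same spread beyond counting error. This did not check the fits at the wider spread of the low rows. Alternatives were pseudocounts of 0.5 and 5, no filter or a mean of at least 50, TMM factors, quantile normalization, no trend, edgeR 4.0.16, DESeq2 1.42.0, leaving out single libraries, and a replicate block. The dates in the labels pair the exosome libraries (mean correlation of deviations 0.01 over 12 pairs), and the main fits had no block. Host genes were compared by description, since no called member has a listed host. Below the filter fell 2 members in glucose and 3 in the exosome fits. Named members were those called, the 8 highest, the 3 largest differences in each comparison and those within 10 kb of another, with the exceptions marked. Python 3.11.15 with matplotlib 3.10.9, scipy 1.17.1, numpy 2.4.6 and pandas 2.3.3 drew the figures and tables, and sequences were searched with blastn 2.17.0+ at an e-value of 0.001.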

Additional observations from a re-analysis of the deposited data

Results flagged for a closer look

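Of 105 groups of 4 libraries checked (21 named members in 5 groups), 7 held a library far from the other 3 by Dixon's criterion, and chance gives about 1 in 20. In BMDM-HG-exo, Mir6236 had 3910 counts in 1 library, against 2849 to 3005 in the others, and Gm24245 had 1075 in the same library, against 833 to 871. In BMDM-NG-exo, Gm24245 had 1498 in library 1, against 876 to 938, and its call against PBS was lost without that library. Mir23b had 67.7 counts in library 2 of BMDM-NG-exo, against 42.2 to 45.6. Mir27b had 187 in library 1 of BMDM-HG-exo, against 122 to 133. Gm22118 had 22.1 in library 2 of BMDM-HG-exo, against 25.2 to 25.7. Mir1942 had 19.5 in 1 PBS library, against 1.27 to 3.32 in the others.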

How the results depend on the processing

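Against 2 called members in high glucose, 1 was called with a pseudocount of 0.5, TMM factors or edgeR (Mir6236) and with no trend (Mir98), and 1 to 4 when a library was left out. With the library number as a replicate block 0 were called. Only 2 numbers occur in both groups, and the mean correlation of these 2 pairs was 0.01. This cannot decide whether a shared number marks a pairing, since the exosome libraries paired by date also gave 0.01. For BMDM-NG-exo against PBS, 2 became 0 with no trend or DESeq2 and 0 to 4 when a library was left out. For BMDM-HG-exo against PBS, 0 became 1 with no trend (Gm24195), 1 with the date as a replicate block (Gm22118) and 0 to 1 when a library was left out. The date block changed no other call of a member. The other exosome comparisons had 0 under all 22 alternatives. Over all rows, calls without the trend, with DESeq2 or with the other alternatives that keep all libraries ran from 654 to 2162 in high glucose (1914 as reported), 95 to 512 for BMDM-NG-exo against PBS (432), 295 to 833 for BMDM-HG-exo against PBS (698), 1 to 136 for the combined controls (29) and 1 to 25 between exosome groups (2). With a library left out, they ran from 1 to 204 for the combined controls and from 1 to 7 between exosome groups. The difference in the share of Gm23935 ran from -0.56 to 0.76 points in glucose with a library left out, from -0.55 to 0.99 for BMDM-NG-exo against PBS, and from -1.30 to 0.0131 for BMDM-HG-exo against PBS. Its log2 fold change ran from -0.0274 to 0.174 and from -0.086 to 0.122 in the first 2 of these, and was 0.00 under quantile normalization in all 5 comparisons, since it had the highest count in each library. Gm24273 reversed to -0.25 with the replicate block in glucose. The cause of these shifts was not tested. The planned test of a member relative to its host was not run, since no called member has a listed host.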
